A study of Mus musculus with 44 samples.

Results

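The postsynaptic scaffold genes described here were Dlg1, Dlg2, Dlg3, Dlg4, Dlgap1, Shank1, Shank3 and Pick1. They were chosen by name, with their EXT vs TA differences already known, and 7 of the 8 had a row among the 8203 genes of the deposited matrix. The expression of Shank3 was not analysed here. The RNA bound to ribosomes of Crh neurons of the central amygdala (CeA) had been collected by TRAP-seq (translating ribosome affinity purification, in which an antibody against a GFP-tagged ribosomal protein pulls down ribosomes with their RNA). All 44 mice were first-generation Crh-Cre by eGFP-L10a offspring, heterozygous for each transgene and 10 to 16 weeks old. The tagged ribosomes therefore depend on Cre under the control of Crh, in a 1 mm punch of the amygdala, with an individual mouse as the sample. The 16 TA mice (10 males and 6 females) heard 5 tones without shock, and the 12 FC mice (6 males and 6 females) received 5 tones paired with a 0.65 mA foot shock. The 16 EXT mice (10 males and 6 females) were conditioned in the same way and heard 30 tones without shock on the next day in another context. All mice were habituated on 2 days beforehand and were sacrificed 2 h after the last session.

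At an excitatory synapse, the Dlg proteins (Dlg1 is SAP97, Dlg2 is PSD-93, Dlg3 is SAP102 and Dlg4 is PSD-95) bind the tails of NMDA receptors and of AMPA receptor partners through PDZ domains. Dlgap1 links the Dlg proteins to the Shank proteins, which in turn reach the actin cytoskeleton through Homer and cortactin. Pick1 is different in kind: it binds the tails of the AMPA receptor subunits encoded by Gria2 and Gria3 and is known for roles in the trafficking and internalization of these receptors. Neurons of the CeA are mostly GABAergic and receive glutamatergic input onto their dendrites.

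Whole reads could be solved back from every deposited log2 cpm value, and the effective library sizes were 14649837 to 20440351 reads in TA mice, 13431032 to 19257786 in FC mice and 12802113 to 17805609 in EXT mice. Batches 1, 2 and 5 held mice of all groups. Batches 3 and 4 held 5 mice and 1 mouse, all of them EXT, so in these batches the condition and the batch cannot be told apart. The markers of GABAergic CeA neurons were well covered, with rows for 13 of 14, among them Crh, Gad1 and Gad2, while Slc32a1 had no row. Of the markers of other cells, rows were present for 3 of 9 excitatory neuron genes (including Slc17a7, not Slc17a6), 9 of 10 oligodendrocyte, 10 of 10 astrocyte, 1 of 9 microglia, 0 of 7 endothelial and 4 of 11 choroid plexus genes. RNA of other cells was therefore present in the samples. In bulk samples, fewer cells of a type and less RNA per cell cannot be told apart.

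On build GRCm38, Dlg3 lies on chromosome X at 100767722 to 100818410 and Pick1 on chromosome 15 at 79229173 to 79249484, and every member is on the plus strand. Dlg1 is at 31663443 to 31875129 of chromosome 16, Dlg2 at 90476672 to 92449247 of chromosome 7, Dlg4 at 70016942 to 70047522 of chromosome 11, Dlgap1 at 69969073 to 70821413 of chromosome 17 and Shank1 at 44310253 to 44360572 of chromosome 7. Pick1 shares 1222 bases, or 18.6% of its exon length, with Gm49486 on the same strand, and Shank1 shares 339 bases (3.22%) with 1700008O03Rik on the opposite strand. Neither neighbour had a row. The library kits used are not stated to mark strand, so the reads of the bases that Shank1 shares are uncertain. Those that Pick1 shares are uncertain with any kit, since the neighbour is on the same strand.

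Start regions are given for Dlg3 and Pick1 because these genes varied together most closely between mice. CREB, a transcription factor that the study names, binds the CRE, whose core is TGACG, and this core was searched on both strands in the 250 bases before each annotated start (RefSeq, GRCm38.p6). Of 32851 such windows, 17.8% held the core and 1.55% held the full palindrome TGACGTCA, which contains it. Among 17 windows of 7 members with an entry, Shank3 included, 2 held the core (11.8%), at the first start of Dlg3 and at the third of Dlg4, and 0 held the palindrome. Shank1 had no entry. In the windows below, each printed on the plus strand, capitals mark the core, which is on the minus strand. The first printed capital lies 78 bases before the Dlg3 start.
Dlg3 start 1, chrX:100774245-100774494: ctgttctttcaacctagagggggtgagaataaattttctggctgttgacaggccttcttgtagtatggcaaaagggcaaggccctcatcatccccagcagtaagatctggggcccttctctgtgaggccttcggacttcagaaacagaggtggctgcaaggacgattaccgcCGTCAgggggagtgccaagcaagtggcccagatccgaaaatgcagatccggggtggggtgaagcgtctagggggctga
Dlg3 start 2, chrX:100777021-100777270: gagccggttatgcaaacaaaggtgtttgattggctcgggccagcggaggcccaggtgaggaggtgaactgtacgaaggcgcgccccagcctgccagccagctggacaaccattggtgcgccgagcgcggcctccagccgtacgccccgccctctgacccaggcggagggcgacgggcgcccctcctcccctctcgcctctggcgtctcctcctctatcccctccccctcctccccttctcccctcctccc
Pick1 start 1, chr15:79228923-79229172: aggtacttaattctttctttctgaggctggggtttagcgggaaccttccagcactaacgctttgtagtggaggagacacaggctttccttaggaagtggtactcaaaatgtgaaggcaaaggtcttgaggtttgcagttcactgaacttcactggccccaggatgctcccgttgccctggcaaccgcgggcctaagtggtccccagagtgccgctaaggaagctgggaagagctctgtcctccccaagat
No exon of GENCODE release 21 overlapped these windows, and no capitals appear in those of the second Dlg3 start and of the first Pick1 start. The window of a second Pick1 start is not printed, since 209 of its 250 bases lie in Pick1 exons, and it held 0 cores. A motif match is a description and says nothing of binding.

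Per exon length, Dlg3 was the highest of the 7 members and Dlg4 the lowest. On the log2 scale of cpm per kb of exon, averaged over 44 mice, Dlg3 was at 3.95 ± 0.61 (SD), Pick1 at 3.45 ± 0.37, Dlgap1 at 3.30 ± 0.43, Dlg1 at 2.71 ± 0.42, Shank1 at 2.27 ± 0.65, Dlg2 at 2.25 ± 0.35 and Dlg4 at 1.64 ± 0.53. Dlg3 was above Pick1 in 40 of 44 mice, Dlgap1 above Dlg1 in 39 and Dlg2 above Dlg4 in 40. The difference between Pick1 and Dlgap1 was smaller than its spread between mice (0.15 ± 0.50, Pick1 higher in 35 of 44 mice), as was that between Shank1 and Dlg2 (0.02 ± 0.60, Shank1 higher in 24). The lengths are those of all annotated exons and may exceed what these neurons use. The genes were deeply covered, from 356 reads of Dlg4 in the mouse with fewest to 5888 reads of Dlgap1 in the mouse with most.

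Dlg3 had its highest median in TA mice. Its log2 cpm had a lowest value of 6.38, a median of 6.79 and a highest value of 7.64 in the 16 TA mice, against 5.15, 6.61 and 7.35 in the 12 FC mice and 5.37, 6.11 and 7.28 in the 16 EXT mice. The groups overlapped, but 11 of 16 EXT mice and 4 of 12 FC mice lay below every TA mouse. These EXT mice include mice of batches 3 and 4, which held no TA mouse. Below every TA mouse of their own batch lay 2 of 2 EXT mice in batch 1, 2 of 3 in batch 2 and 3 of 5 in batch 5. The share of all genes with such counts was not determined for any member. Compared with the TA median of the same batch, Dlg3 was lower in 11 of 12 FC mice and in 9 of 10 EXT mice of batches 1, 2 and 5.

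The values by batch show where Dlg3 differed. In batch 1, the 4 TA mice were at 7.21, 7.27, 7.59 and 7.64, the 5 FC mice at 6.54, 6.80, 6.86, 7.07 and 7.35, and the 2 EXT mice at 5.97 and 7.14. In batch 2, the 5 TA mice ranged from 6.56 to 6.91, the 2 FC mice were at 6.67 and 6.84, and the 3 EXT mice were at 5.62, 6.13 and 6.60. In batch 5, the 7 TA mice ranged from 6.38 to 6.81, the 5 FC mice were at 5.15, 5.60, 6.26, 6.26 and 6.46, and the 5 EXT mice were at 5.84, 6.17, 6.23, 6.49 and 6.64. The FC mice of batch 2 lay inside the TA range, while 4 of 5 FC mice lay below it in batches 1 and 5 each. The EXT mice of batch 3 were at 5.37, 5.37, 5.75, 6.10 and 7.28, and the EXT mouse of batch 4 was at 5.42.

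Pick1, the AMPA receptor partner, followed the same order of groups. Its log2 cpm had a lowest value of 6.05, a median of 6.35 and a highest value of 6.84 in TA mice, against 5.34, 6.21 and 6.70 in FC mice and 5.26, 5.87 and 6.63 in EXT mice. As for Dlg3, 11 of 16 EXT mice lay below every TA mouse, and 3 of 12 FC mice did. These EXT mice again include mice of batches 3 and 4. Below every TA mouse of their own batch lay 1 of 2 EXT mice in batch 1, 2 of 3 in batch 2 and 4 of 5 in batch 5. Against the TA median of the same batch, Pick1 was lower in 10 of 12 FC mice and in 10 of 10 EXT mice. In batch 5, 4 of 5 EXT mice, at 5.78, 5.79, 5.83 and 5.96, were below the lowest of 7 TA mice, at 6.05.

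**Figure D1:**
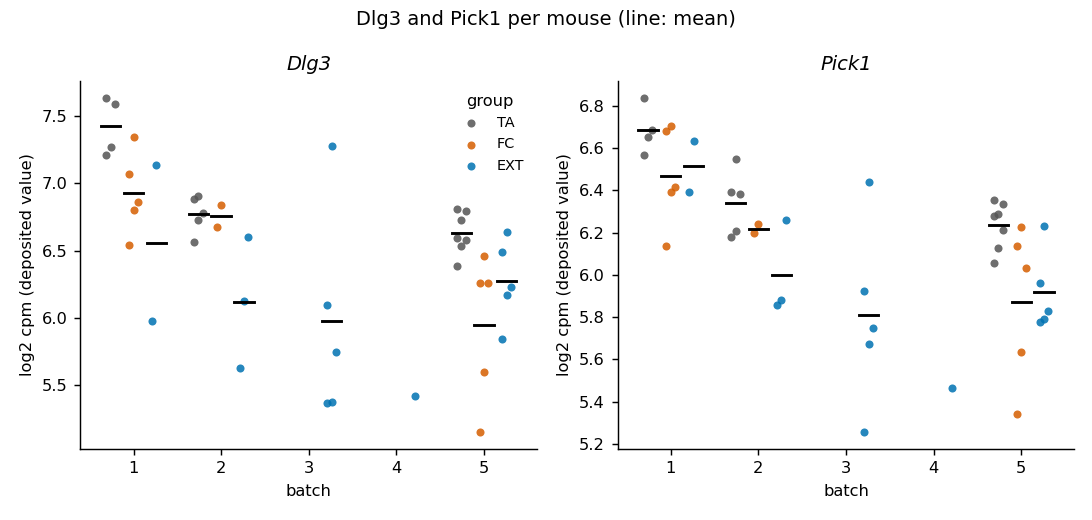
Deposited log2 cpm (vertical axis) of Dlg3 and Pick1 in each of 44 mice by batch (horizontal axis), with a point per mouse coloured by group and a black line at the mean of each group of at least 2 mice in a batch. Within batches 1, 2 and 5 the TA mean is the highest for both genes, and 1 EXT mouse of batch 3, at 7.28 for Dlg3 and 6.44 for Pick1, stands above the other EXT mice of that batch.

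FC vs TA sets conditioned mice beside mice that heard the tones alone. It shares the TA mice with the contrast on which the members were chosen, so its values are not independent of that choice. In a limma fit with batch as categories and sex, no member passed an FDR of 0.05 in FC vs TA, where 0% of all genes passed. Dlg3 differed by a log2 fold change of -0.48 (SE 0.12, 95% CI -0.72 to -0.23) and Pick1 by -0.26 (SE 0.08, 95% CI -0.44 to -0.09), with limma adjusted p of 0.102 and 0.143. These were the 2 of 7 members with an unadjusted p under 0.05, both lower, as were 8.2% of all genes, with 8.61% higher and 16.8% in either direction. The differences within batches 1, 2 and 5 were -0.50, -0.01 and -0.69 for Dlg3, and -0.22, -0.12 and -0.36 for Pick1. Dlgap1, the link to the Shank proteins, differed by -0.20 (95% CI -0.42 to 0.02) and Shank1 by 0.21 (-0.07 to 0.49). The intervals of Dlg1 (0.01, from -0.16 to 0.17) and Dlg2 (0.02, from -0.15 to 0.19) were narrow around 0, and that of Dlg4 was wide (0.09, from -0.31 to 0.49).

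Markers of other cells moved in the same comparison. Within batches, the summed level of 10 astrocyte markers differed by 0.54 on the log2 scale in FC vs TA (TA range 9.43 to 11.48, FC range 9.93 to 11.27) and that of 4 choroid plexus markers differed by -0.89 (TA 7.55 to 14.75, FC 9.39 to 14.24). The oligodendrocyte sum differed by -0.06, although 8 of its 9 markers had a fitted difference above 0, with a median of 0.25. Its 1 marker below 0, Enpp2 at -0.97, was also counted in the choroid plexus sum. The sum of 13 markers of CeA inhibitory neurons differed by -0.24 (TA 11.96 to 13.05, FC 11.88 to 13.27). It is not a measure of the Crh neurons alone, since it holds Sst and Prkcd, which the paper names as markers of other CeA populations. Crh itself had a fitted difference of -0.34. Of these 13 markers, 10 had a fitted difference below 0, and their median was -0.19 beside -0.00 over all genes. With the choroid plexus score as a covariate, Dlg3 differed by -0.47 and Pick1 by -0.23 in FC vs TA. Between mice of the same batch and group, the astrocyte sum had a Pearson r of -0.03 with Dlg3 and 0.01 with Pick1 over 39 mice. The part of astrocyte RNA and of the number of targeted neurons in these differences was not tested.

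EXT vs TA is given as a description, because the members were chosen with this contrast known. Dlg3 differed by a log2 fold change of -0.57 (SE 0.16) and Pick1 by -0.30 (SE 0.09), while Dlg4 differed by 0.49 (SE 0.18) and Shank1 by 0.46 (SE 0.18). Dlgap1 differed by -0.22 (SE 0.12), Dlg1 by 0.00 (SE 0.11) and Dlg2 by 0.05 (SE 0.12). At an FDR of 0.05, 0 of 7 members passed, beside 0.0244% of all genes (Fos and Iars, named after their values were seen). With an unadjusted p under 0.05 there were 2 members higher (10.2% of all genes) and 2 lower (11% of all genes). The paper, by contrast, lists Dlg3 among its top EXT vs TA genes, lower in EXT and past its FDR, with a smaller difference. Its limma fit also controlled for batch and sex, without naming how batch was coded. The marker sums differed within batches by -0.51 (choroid plexus) to 0.13 (the microglia marker), where the sum of the CeA inhibitory neuron markers differed by -0.01. Of its 13 markers, however, 9 were below 0 in the fit, with a median of -0.20 beside 0.01 over all genes, and Gad1 and Gad2, the enzymes of GABA synthesis, differed by -0.42 and -0.24. Crh itself had a fitted difference of -0.32. The part of the targeted neurons in the Dlg3 and Pick1 differences was not tested. Dlg3 was at -0.57 with the choroid plexus score and at -0.54 with the excitatory neuron score as a covariate.

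The way batch entered the fit changed these counts, which remain a description of members chosen with EXT vs TA known. With batch as a number, Dlg3 was at -0.73, Shank1 at 0.72 and Pick1 at -0.42, and these 3 members passed the FDR in limma, beside 21.4% of all genes. Without batches 3 and 4, Dlg3 (-0.56) and Pick1 (-0.30) passed, beside 4.99% of all genes. The same 2 passed when a single EXT mouse, the female of batch 3 with the highest Dlg3 value of all EXT mice, was left out (Dlg3 -0.56, Pick1 -0.30, beside 5.75% of all genes). Of all mice left out in turn, this mouse gave the highest count of genes past the FDR (472). Its batch holds no TA mouse, so with batch as categories it informs the group difference little. With log2 library size added to the main fit, Dlg3 was at -0.46, Pick1 at -0.24, Dlg4 at 0.30 and Shank1 at 0.31, and 0% of all genes passed.

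**Figure D2:**
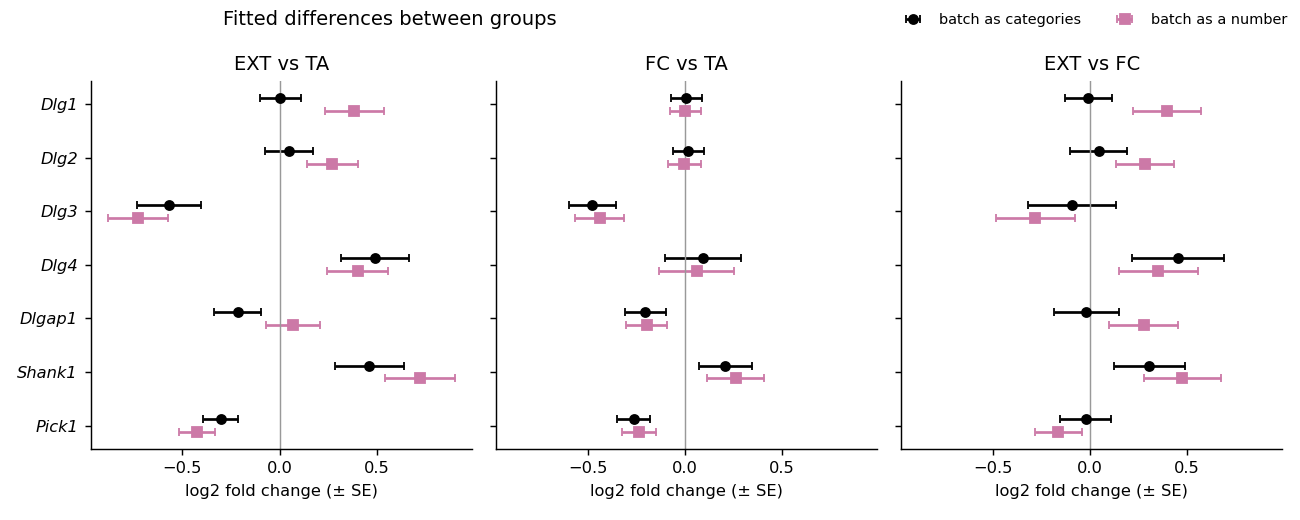
Fitted log2 fold change with its SE (horizontal axis) of each of the 7 members (vertical axis) in EXT vs TA, FC vs TA and EXT vs FC, with batch as categories (black circles) or as a number (pink squares). Dlg3 and Pick1 lie left of 0 in EXT vs TA and FC vs TA under both codings, and in EXT vs TA Dlg1 moves from 0.00 to 0.39 between them.

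The EXT and TA values of the synaptic scaffolds Dlg4 and Shank1 went the other way from Dlg3. Dlg4 (PSD-95) had a lowest value of 4.52, a median of 5.09 and a highest value of 5.96 in TA mice, 4.31, 5.12 and 6.70 in FC mice and 4.48, 5.58 and 6.34 in EXT mice. Shank1 was at 4.62, 5.35 and 6.31 in TA mice, 4.92, 5.58 and 6.59 in FC mice and 4.68, 6.09 and 7.10 in EXT mice. All groups overlapped for both genes, and within batches 8 of 10 EXT mice were above the TA median of their own batch for each of them. The EXT minus TA means in batches 1, 2 and 5 were 0.39, 0.18 and 0.72 for Dlg4, and 0.90, 0.51 and 0.21 for Shank1. In batch 5, the EXT mice were at 5.19, 5.65, 6.06, 6.20 and 6.34 for Dlg4, and 3 of 5 lay above all 7 TA mice.

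**Figure D3:**
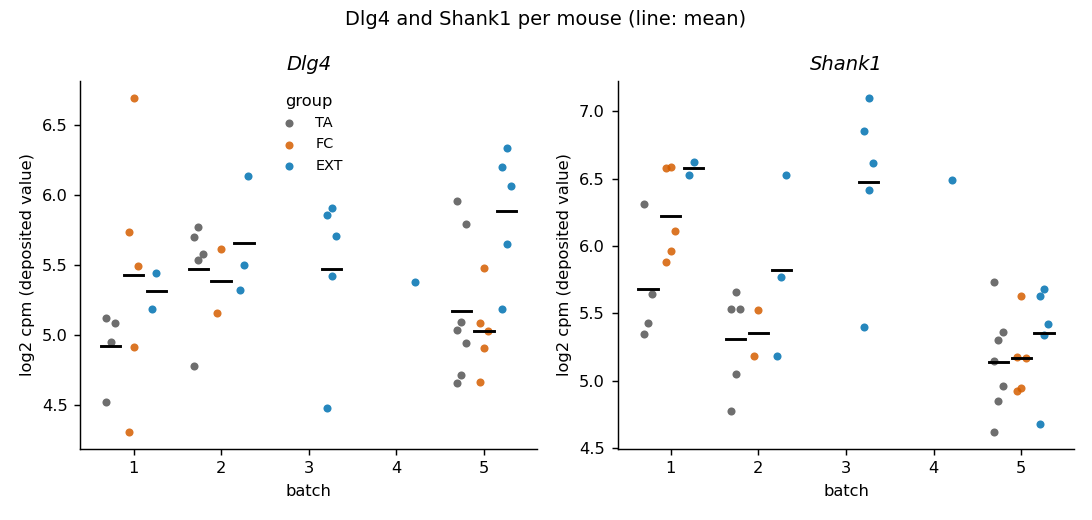
Deposited log2 cpm (vertical axis) of Dlg4 and Shank1 in each of 44 mice by batch (horizontal axis), coloured by group, with a black line at the mean of each group of at least 2 mice in a batch. The EXT mean is above the TA mean in batches 1, 2 and 5 for both genes, by 0.18 to 0.72 for Dlg4 and by 0.21 to 0.90 for Shank1.

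EXT vs FC sets mice taken after the extinction session beside mice taken after conditioning, and it also holds the additional day since the shock and the other context. It shares the EXT mice with the contrast on which the members were chosen, so its values are not independent of that choice. It showed no member past an FDR of 0.05 in limma (0% of all genes), and 0 of 7 had an unadjusted p under 0.05, beside 4.19% of all genes (2.22% higher and 1.97% lower). Dlg4 had the largest difference of the members (0.45, 95% CI -0.03 to 0.94), followed by Shank1 (0.30, 95% CI -0.07 to 0.68). For Dlg3 the difference was -0.09, with a 95% CI from -0.56 to 0.37 that includes a change of the size seen in FC vs TA. Pick1 differed by -0.02 (95% CI -0.29 to 0.25). Dlg3 also differed in sign between batches, with -0.37 in batch 1, -0.64 in batch 2 and 0.33 in batch 5.

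In EXT mice, the means of Dlg1, Dlgap1, Shank1 and Dlg2 were higher in batches 3 and 4 than in the other batches, and Dlg1 alone lay clear of the TA and FC mice there. Dlg1 (SAP97) was at 6.57, 6.78, 6.98, 7.28 and 7.36 in the 5 EXT mice of batch 3 and at 7.06 in that of batch 4. All 6 lay above every TA mouse and every FC mouse, of which the highest were both at 6.30. The 10 EXT mice of batches 1, 2 and 5 averaged 6.01 ± 0.30 (SD) with a range of 5.66 to 6.76, beside a TA range of 5.66 to 6.30. Dlgap1 averaged 8.01 ± 0.25 (SD) in batches 3 and 4 against 7.26 ± 0.49 in the other EXT mice, Shank1 6.48 ± 0.59 against 5.74 ± 0.65 and Dlg2 6.80 ± 0.31 against 6.24 ± 0.44. Of the 6 mice, 2 lay above every TA and FC mouse for Dlgap1, 3 for Shank1 and 3 for Dlg2, and each of these genes overlapped the other EXT mice. The means went the other way for Dlg3 (5.88 ± 0.74 against 6.28 ± 0.44), Pick1 (5.75 ± 0.41 against 6.06 ± 0.30) and Dlg4 (5.46 ± 0.53 against 5.70 ± 0.44). These are values without a test, since the 2 batches hold no TA or FC mouse. The share of all genes that lay clear of the TA and FC mice in these batches was not counted, so whether Dlg1 is unusual is not known. Batch differences were common, with 50.3% of all genes differing between batches 1, 2 and 5 of TA mice at an FDR of 0.05. With batch as a number, they gave Dlg1 a log2 fold change of 0.39 in EXT vs TA, where the fit with categories gave 0.00 (95% CI -0.21 to 0.22).

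**Figure D4:**
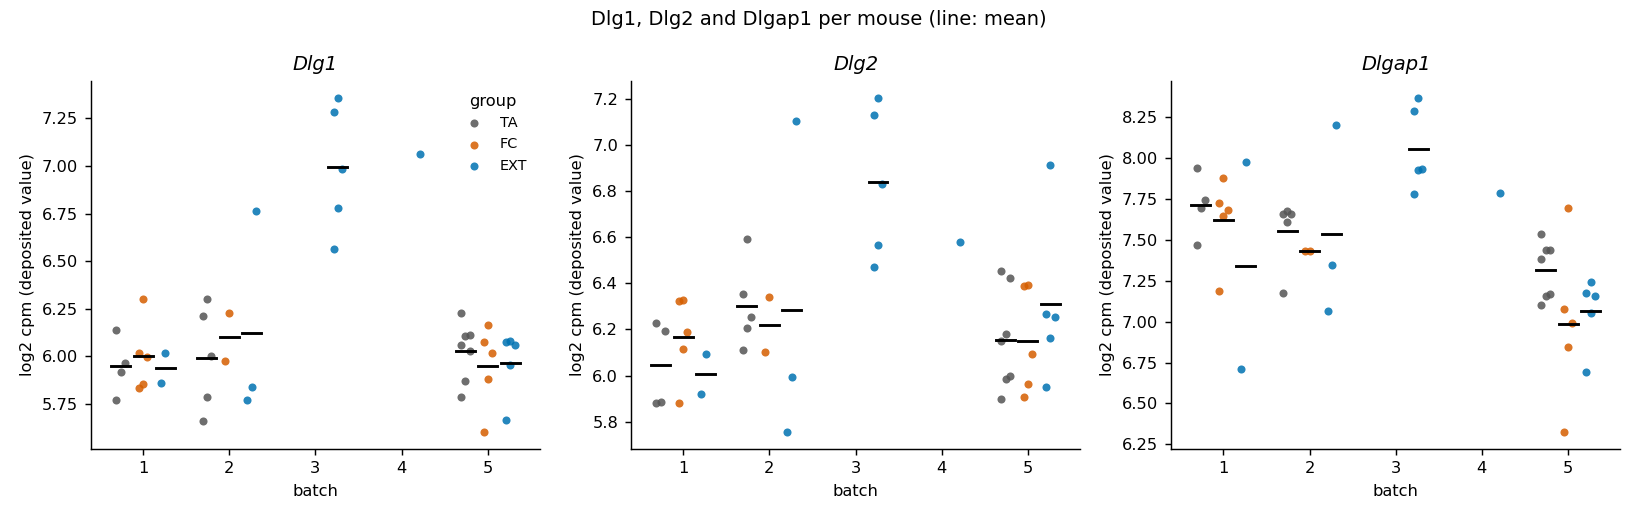
Deposited log2 cpm (vertical axis) of Dlg1, Dlg2 and Dlgap1 in each of 44 mice by batch (horizontal axis), coloured by group, with a black line at the mean of each group of at least 2 mice in a batch. The EXT mice of batches 3 and 4 are at 6.57 to 7.36 for Dlg1, above all TA and FC mice, and the EXT mice of batches 1, 2 and 5 average 6.01.

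The Dlg genes were also compared with each other within each mouse. The share of each gene in the summed reads per exon length of Dlg1 to Dlg4 does not depend on the scaling of the library. In TA mice, Dlg3 made up 60.0% ± 7.39 (SD, n = 16; lowest 46.9%, median 58.1%, highest 73.4%), Dlg1 17.9% ± 2.94, Dlg2 13.4% ± 2.56 and Dlg4 8.73% ± 3.03. In FC mice, the Dlg3 share was 53.3% ± 10.1 (n = 12; 33.1%, 55.7% and 66.4%), and in EXT mice of batches 1, 2 and 5 it was 47.7% ± 11.6 (n = 10). The groups overlapped. In the 6 EXT mice of batches 3 and 4 the Dlg3 share was 19.8%, 24.9%, 25.4%, 27.6%, 38.2% and 56.5%. Dlg3 had the largest share in 16 of 16 TA mice, 12 of 12 FC mice and 9 of 10 EXT mice of batches 1, 2 and 5, but in 2 of 6 EXT mice of batches 3 and 4, where Dlg1 led in the other 4. These leads depend on the division by annotated exon length, which is shortest for Dlg3. Without it, the mean Dlg3 share was 40.45% in TA mice, 34.3% in FC mice and 29.6% in EXT mice of batches 1, 2 and 5. The Dlg2 share was then 24.7%, 26.9% and 27.7%, and the leading gene of each mouse was not counted.

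Mean differences of the shares within batches are given without a test in FC vs TA, which reuses the TA mice of the contrast that chose the members. The Dlg3 share differed by -8.47 percentage points, the Dlg1 share by 3.34, the Dlg2 share by 2.80 and the Dlg4 share by 2.34. When each of the 28 mice was left out in turn, the Dlg3 difference was -9.46 to -7.07 points and the Dlg1 difference 3.10 to 3.55. The others rested more on single mice, since the Dlg2 difference was 1.76 points without FC mouse 47 and the Dlg4 difference 1.31 without FC mouse 17. The shares of a mouse add up to the whole, so a lower Dlg3 share raises the others without any change in their levels, and the levels of Dlg1 and Dlg2 differed by 0.01 and 0.02. In EXT vs FC the Dlg3 share differed by -3.51 points (two-sided permutation p = 0.446) and the Dlg4 share by 3.42 points (permutation p = 0.118). EXT vs FC reuses the EXT mice of the contrast that chose the members, so these tests are not independent of that choice either. The EXT minus TA differences within batches, given as a description, were -11.6 points for Dlg3, 5.36 for Dlg4, 3.13 for Dlg1 and 3.14 for Dlg2.

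**Figure D5:**
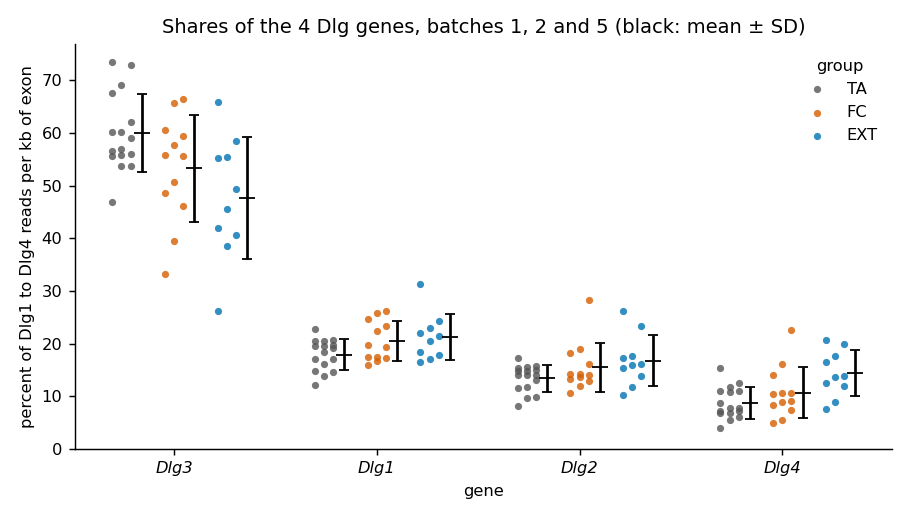
Share of Dlg1 to Dlg4 in their summed reads per kb of exon (percent, vertical axis) for each gene (horizontal axis) in the mice of batches 1, 2 and 5, with a point per mouse coloured by group and black bars at the mean ± SD. The mean Dlg3 share is 60.0% in TA, 53.3% in FC and 47.7% in EXT mice, and the groups overlap.

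Mice of the same batch and group also differed in these genes, and Dlg3 and Pick1 deviated together. Deviations from the mean of each batch and group were correlated over 39 mice for 21 pairs of members, with 100000 permutations within batch and group. Dlg3 and Pick1 had a Pearson r of 0.87 (permutation p = 1e-05, the smallest possible, 0.00021 after adjustment over the pairs) and a Spearman rho of 0.81 (permutation p = 1e-05, adjusted 0.00021), with r of 0.80 without the 2 mice farthest from the median of Dlg3. Shank1 went against both, with r of -0.67 and rho of -0.60 against Dlg3 (permutation p = 0.00011 and 0.00025, adjusted 0.00116 and 0.00175, r -0.63 without 2 mice). Its values against Pick1 were -0.61 and -0.60 (permutation p = 0.00033 and 0.00025, adjusted 0.00231 and 0.00175, r -0.52 without 2 mice). Dlg4 correlated with Shank1 at r 0.57 and rho 0.59 (permutation p = 0.00065 and 0.00061, adjusted 0.00341 and 0.0032, r 0.58 without 2 mice), and against Dlg3 at r -0.53 and rho -0.54 (permutation p = 0.00109 and 0.00124, adjusted 0.00409 and 0.00521, r -0.47 without 2 mice). In all, 8 of 21 pairs passed an adjusted p of 0.05 by both measures, the others being Dlg1 with Dlg2 (r 0.62, rho 0.55), Dlg2 with Dlg4 (r 0.49, rho 0.53) and Dlg4 with Pick1 (r -0.48, rho -0.49), with adjusted permutation p of 0.0041 to 0.0134 for r and 0.00563 to 0.0119 for rho. Such correlations were common among genes, since an absolute r of at least 0.48, the smallest of the 8, was found in 9.59% of all pairs of the 8203 genes, in 25% of the pairs that hold Dlg3 and in 17% of those that hold Pick1.

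The female EXT mouse of batch 3 with Dlg3 at 7.28 shows the pattern in an individual. It had the highest Dlg3 and Pick1 values of its batch and the lowest Dlg4 (4.48) and Shank1 (5.40) values. After regression on log2 library size, the r of Dlg3 with Pick1 was 0.86, and library size itself had r of 0.29 with each of them (permutation p = 0.197 and 0.166, 0.344 for each after adjustment over 7 members, r 0.23 without 2 mice) and rho of 0.16 and 0.09 (permutation p = 0.377 and 0.592, adjusted 0.66 and 0.691). The deviations of the excitatory neuron, oligodendrocyte, astrocyte, microglia and choroid plexus marker sums had r of -0.16 to 0.05 with Dlg3 and Pick1, and those of the CeA inhibitory neuron markers had r of 0.36 with each. Enpp2 entered both the oligodendrocyte and the choroid plexus sum.

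Set against all 8203 genes, Dlg3 was the gene whose deviations were most like those of Pick1. Snx17, a sorting nexin of endosomes, came next at r 0.86, followed by Nmt1, an N-myristoyltransferase, at 0.86. The genes most like Dlg3 were Dhx30, an RNA helicase, at r 0.92, Pfkp, a phosphofructokinase of glycolysis, at 0.91 and Trim35, a member of the tripartite motif family, at 0.91, and Pick1 ranked at place 20. Shank1 ranked at place 7972 for Dlg3 and at place 8063 for Pick1, near the opposite end of the list. These correlations over 39 mice describe likeness only, and many genes share the same libraries and the same scaling.

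Dlg3 and Pick1 also differed between batches when only TA mice were compared, a contrast that no conditioning enters. Dlg3 was lower by -0.61 (SE 0.13) in batch 2 and by -0.76 (SE 0.12) in batch 5 than in batch 1, and Pick1 by -0.35 (SE 0.11) and -0.46 (SE 0.10). These 2 of 7 members passed the moderated F test of limma (adjusted p = 0.000277 and 0.00467), beside 50.3% of all genes, so that such a difference was common. Ranges and medians over whole groups pool these batches, while the fitted differences do not.

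By sex, the difference between males and females in the group difference was tested with an interaction term, and 0 of 7 members passed an FDR of 0.05 in limma in any contrast, beside 0% of all genes in each. With an unadjusted p under 0.05 there were also 0 members, beside 6.02% of all genes in EXT vs TA, 9.62% in FC vs TA and 4.16% in EXT vs FC. In EXT vs TA the interaction was -0.01 (95% CI -0.63 to 0.61) for Dlg3 and -0.27 (95% CI -0.60 to 0.05) for Pick1, as the male minus the female difference. In FC vs TA it was 0.24 (95% CI -0.25 to 0.73) for Dlg3 and 0.00 (95% CI -0.35 to 0.36) for Pick1. These intervals are wide beside the group differences themselves. Dlg3, an X-linked gene, averaged 7.09 ± 0.47 (SD) in female and 6.75 ± 0.24 in male TA mice, with ranges of 6.59 to 7.64 and 6.38 to 7.21 that overlapped. Batch enters these means, since batch 1, with the highest values, held 3 of 6 females and 1 of 10 males. Within batches, the female and male means were 7.50 and 7.21 in batch 1, 6.73 and 6.78 in batch 2, and 6.66 and 6.62 in batch 5, with a single male in batch 1 and a single female in batch 2.

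Other postsynaptic scaffold genes were counted for comparison, 34 of 40 listed having a row. In EXT vs TA 1 was higher and 4 were lower at an unadjusted p under 0.05 in limma, 0 passed the FDR, and their median log2 fold change was -0.02 beside 0.01 over all genes. Over all genes, 10.2% were higher and 11% lower at that p, so the 4 lower of 34 are near the share of all genes. The genes below are named by the rule given with the methods. Shank2, a close relative of Shank1, differed by 0.27 (SE 0.11). Nsf, an ATPase that binds the Gria2 tail, differed by -0.46 (SE 0.17), Arhgef7, an exchange factor for Rac bound by Shank proteins, by -0.37 (SE 0.09) and Magi1, a PDZ scaffold of the same superfamily as the Dlg proteins, by -0.33 (SE 0.13). In FC vs TA, 0 were higher and 9 lower at that p (8.61% and 8.2% of all genes), 0 passed the FDR, and the median was -0.08 beside -0.00 over all genes. Of those lower, Akap5 (-0.52, SE 0.13), named after its values were seen, had a larger difference than Dlg3 (-0.48). In EXT vs FC, 4 were higher, 0 lower (2.22% and 1.97% of all genes) and 0 passed the FDR, with a median of 0.13 beside 0.01.

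Of the receptors and adhesion partners that these scaffolds bind, 24 of 30 had a row. In EXT vs TA, 4 were higher and 0 lower at an unadjusted p under 0.05 in limma (10.2% and 11% of all genes), 0 passed the FDR, and the median log2 fold change was 0.02. Cacng2 (stargazin, an auxiliary AMPA receptor subunit that binds PSD-95) differed by 0.42 (SE 0.18), and the NMDA receptor subunits Grin2a and Grin2b by 0.35 (SE 0.16) and 0.34 (SE 0.14). The other listed NMDA receptor subunits were Grin1 at -0.21 (SE 0.20), Grin3a at -0.20 (SE 0.14) and Grin2d at 0.07 (SE 0.10). In FC vs TA, Cacng2 was the 1 gene higher, at 0.40 (SE 0.15), and 6 were lower (8.61% and 8.2% of all genes), 0 of them past the FDR, with a median of -0.11. Of those lower, Grin1 (-0.62, SE 0.16) and Grm7 (-0.57, SE 0.17) had larger differences than Dlg3 (-0.48). In EXT vs FC, 2 were higher, 0 lower (2.22% and 1.97% of all genes) and 0 passed the FDR, with a median of 0.14. All 3 contrasts share groups of mice, so these counts are not independent of each other.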

How the data were processed

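TRAP-seq was analysed in 44 mice (16 TA, 12 FC and 16 EXT). The authors used Trimmomatic 0.36 for trimming, STAR for mapping to GRCm38, SAMtools for sorting and edgeR for the counts. They state a filter of cpm over 4 in every sample (60 of 360932 values, none of a member, were at or under it on the effective library sizes), removed outliers and deposited log2 cpm in the form given by voom, where 0.5 is added to the reads. Depth is that of the recovered reads, whole to within 0.02 reads for 360932 of 360932 values. Intervals are confidence intervals of the fitted difference between groups, not ranges of single mice. Columns recorded with unit other hold the same log2 values.

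The members and gene lists were chosen with earlier results of these data known, as was the coding of batch as categories. Each pair of groups was fitted with limma 3.58.1 (R 4.3.3, moderated test), with batch as categories and sex, two-sided, with Benjamini-Hochberg adjustment over 8203 genes. TA batches were compared with a moderated F test. Shares (EXT vs FC) and correlations were tested with 100000 permutations (Python 3.11.15, numpy 2.4.6, scipy 1.17.1) within batches or within batch and group (at least 3 mice). Beside the members, the genes named are up to 3 per list and direction with the largest EXT vs TA change at an unadjusted p under 0.05, and the 3 most like Dlg3 or Pick1. Akap5, Grin1, Grin2d, Grin3a and Grm7 were named after their values were seen. Genes were placed with GENCODE release 21. The methods were tested on simulated data.

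Alternatives were the batch number, no batch term, log2 library size, marker scores, each sex, centring, quantile normalization, voom, array weights, an offset of 5 reads, a minimum mean of 5 and leaving out mice or batches. The batch number with library size was added after the data were seen.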

Additional observations from a re-analysis of the deposited data

Results flagged for a closer look

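Of 42 groups of 6 or 10 mice (each member by sex and group), 2 held a mouse far from the others, where chance gives about 1 in 20. Among male FC mice, Shank1 was at 6.59 in mouse 49 of batch 1, against 4.95 to 5.52 in the other males, of which none was in batch 1. In that batch, the 4 female FC mice were at 5.88 to 6.58. Also among male FC mice, Pick1 was at 5.34 in mouse 47 of batch 5, against 6.14 to 6.39 in the others, and Dlg3 was at 5.15 in the same mouse, the lowest of all 44 mice.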

How the results depend on the processing

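No paired analysis was possible because the labels number the mice individually and no number is shared between groups. In EXT vs TA, 2 genes passed the FDR in the main fit. This count was 1 with all 3 groups in 1 fit, in males alone and with a minimum mean of 5, 0 with library size as a covariate (with batch as categories or as a number), with the excitatory neuron score, in females alone and with voom weights, 11 with the choroid plexus score, 1755 with the batch number, 1614 without a batch term and 409 without batches 3 and 4. Members past the FDR were 0 in the main fit, 3 with the batch number and without a batch term, and 2 without batches 3 and 4. In the same contrast, members at the unadjusted p went from 4 to 2 in females alone and with library size. In FC vs TA, 3 genes passed with a minimum mean of 5, and 1 member had an unadjusted p under 0.05 without a batch term. In EXT vs FC, 4 genes passed with array weights and 2 in males alone, and the members with an unadjusted p under 0.05 were 2 with array weights, 2 with the batch number, 1 in males alone and 1 without a batch term. Dlg1 in EXT vs FC changed sign to 0.40 with the batch number and 0.39 without a batch term. The TA batch difference passed for 4 members when FC mice were added. Leaving out each mouse in turn gave 0 to 472 genes past the FDR in EXT vs TA (0 to 2 members, and 4 to 5 at the unadjusted p), 0 to 3 genes in FC vs TA (2 to 3 members at the unadjusted p) and 0 to 1 members at the unadjusted p in EXT vs FC. The highest count came without EXT mouse 23 of batch 3. The causes were not tested.

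Dlg3, Pick1 and Shank1 kept their sign in EXT vs TA and FC vs TA under every setting run, as did Dlg4 in EXT vs TA and Dlgap1 in FC vs TA. The counts and signs of members in EXT vs TA are a description, since the members were chosen with that contrast known. FC vs TA shares its TA mice and EXT vs FC shares its EXT mice. Signs changed in EXT vs TA for Dlg1 (4 of 17 settings), Dlgap1 (3) and Dlg2 (2), in FC vs TA for Dlg2 (5 of 16), Dlg4 (2) and Dlg1 (1), and in EXT vs FC for Dlgap1 (5 of 17), Dlg1 (4), Dlg3 (3), Pick1 (3) and Dlg2 (2). In FC vs TA the Dlg3 difference ranged from -0.65 to -0.32 over these settings and passed the FDR in none, with adjusted p of 0.0845 to 0.669 in limma.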
